A study of Arabidopsis thaliana with 16 samples.

Results

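Among 32548 Arabidopsis genes with a value in the deposited expression table, 46 were close to silent in wild-type seedlings, carried signal in the rxt3 mutant and stayed lower in the hda6 mutant. A gene entered the set when its mean over the 2 wild-type libraries was at most 5, its mean over the 2 rxt3 libraries at least 15 and its mean over the 2 hda6 libraries under 15. The values are read counts scaled to a common library size, so that 1 unit is close to 1 read. Of the 11932 genes at or under the wild-type limit, 62 (0.52%) reached 15 in rxt3, and 16 of these also reached 15 in hda6 and so lie outside the set. The levels in rxt3, hda6 and wild type chose the genes; they are given below as a description, without a test. Among the 46 genes, 44 are annotated as protein-coding, and AT1G20515 and AT4G07815 are non-coding RNAs.

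The study profiled total RNA of Arabidopsis seedlings of 8 genotypes with 2 libraries each, 16 in all, to compare mutants of histone deacetylases and of proteins that act with them. The mutants, each homozygous at the loci listed, were rxt3(-/-), hda6(-/-), arid14 (arid1 and arid4), esant12 (esant1 and esant2), hda19(-/-), sant1234 (sant1, sant2, sant3 and sant4) and mbd124 (mbd1, mbd2 and mbd4), and the wild type was Col-0. All plants, mutant and wild type, were 14 days old and grew on Murashige and Skoog plates, with days of 16 h at 23 °C and nights of 8 h at 22 °C. Alleles are not named in the labels, and neither is it stated whether replicate libraries had their own plants, so p-values measure the spread between these libraries, which may be technical.

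Histone deacetylases of the RPD3 type remove acetyl groups from histone tails, a change that usually goes with lower transcription. HDA6 and HDA19 are the best studied of these enzymes in Arabidopsis, and they work in complexes with scaffold, histone-binding and DNA-binding subunits. HDC1 is the Arabidopsis protein related to yeast Rxt3, a subunit of the large Rpd3 complex in Saccharomyces cerevisiae, and it binds deacetylases and histones.

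The rxt3 libraries were checked first against the gene that the name points to. HDC1 (AT5G08450, listed as RXT3-like in the reference) had normalised values of 543 and 517 in rxt3, against 1759 and 1826 in wild type, and the other 12 libraries lay between 1608 and 1819. Its level in rxt3 was 29.6% of wild type, with a log2 difference of -1.76 ± 0.05 (SE; limma adjusted p = 3.05e-10). Among 25 deacetylase and complex genes with a test, 2 were higher and 8 lower in rxt3 than in wild type, where 22.3% of all genes tested were higher and 24.9% lower. HDC1 was the only 1 of the 10 to change by at least 1 on the log2 scale. MBD4, a methyl-CpG-binding domain protein, was higher in rxt3 by 0.70 ± 0.24 (adjusted p = 0.0254), but not without rxt3 replicate 1 (adjusted p = 0.189) or wild-type replicate 2 (adjusted p = 0.188). HD2C, of the plant-specific HD2 family of histone deacetylases, was higher by 0.35 ± 0.08 (adjusted p = 0.00237). HD2A, of the same family, differed by -0.72 ± 0.09 (adjusted p = 1.52e-05), and HD2B by -0.42 ± 0.06 (adjusted p = 0.000123). HDA9 and MBD2 were lower too, as were SNL5, MSI4 and ING1, whose calls were lost without wild-type replicate 1 for SNL5 (adjusted p = 0.237) and MSI4 (0.0701), without wild-type replicate 2 for ING1 (0.277), without rxt3 replicate 1 for MSI4 (0.0746) and ING1 (0.359), and without rxt3 replicate 2 for SNL5 (0.11). By method, the ING1 call was also lost with no filter, another scaling, edgeR, DESeq2 or the compared groups only. The SNL5 and MSI4 calls were lost in DESeq2, and the SNL5 and MBD4 calls with the compared groups only. HDA6 had 461 and 481 in rxt3 against 430 and 425 in wild type, and HDA19 2290 and 2250 against 2090 and 2220. Neither HDA6 nor HDA19 passed the test. The HDA19 difference was 0.08 ± 0.30 (SE). Its spread is shared over all genotypes and takes in the hda19 libraries, where the gene had 0.994 and 4.87, so its test says little.

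Each library held 19259579 to 19522197 reads in genes, and 5616 genes had no read anywhere. Leaf genes, among them those for Rubisco small subunits and light-harvesting proteins, summed to between 1034883 and 1291158 in every library. At this depth the 46 genes were few reads each: their wild-type reads came to 0 for SESA3 and CRU3, to 1 to 3 over both libraries for 6 genes, and to 10 at most.

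The promoters of 4 of the genes are shown before the values. SESA3, OLEO1 and CRU3 encode seed proteins and had nearly all of their rxt3 reads in 1 of the 2 rxt3 libraries, and GSTF5 had the highest rxt3 mean of all 46. Each line runs 5′ to 3′ on the gene's strand, from 250 bases before the annotated start to 50 bases from it, in TAIR10.1 from RefSeq. Capitals mark CATGCA (the core of the RY element known from seed storage genes), CACGTG (the G-box) and TATAAA (the TATA motif), searched on both strands with overlapping matches counted. The windows are chr4:13611546-13611845 on the plus strand for SESA3, chr4:12900180-12900479 on the plus strand for OLEO1, chr4:14087306-14087605 on the plus strand for CRU3 and chr1:664241-664540 on the minus strand for GSTF5.
SESA3: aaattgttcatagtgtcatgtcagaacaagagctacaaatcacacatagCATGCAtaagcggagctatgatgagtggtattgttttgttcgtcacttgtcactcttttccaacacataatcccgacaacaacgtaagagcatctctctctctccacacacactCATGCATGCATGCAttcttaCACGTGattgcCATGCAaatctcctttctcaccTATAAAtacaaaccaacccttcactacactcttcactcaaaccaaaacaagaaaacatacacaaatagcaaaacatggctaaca
OLEO1: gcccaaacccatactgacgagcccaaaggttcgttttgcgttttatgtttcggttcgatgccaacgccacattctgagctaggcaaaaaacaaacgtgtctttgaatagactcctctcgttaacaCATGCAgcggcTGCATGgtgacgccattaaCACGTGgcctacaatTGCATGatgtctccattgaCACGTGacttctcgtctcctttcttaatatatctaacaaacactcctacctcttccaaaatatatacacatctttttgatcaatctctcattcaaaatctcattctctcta
CRU3: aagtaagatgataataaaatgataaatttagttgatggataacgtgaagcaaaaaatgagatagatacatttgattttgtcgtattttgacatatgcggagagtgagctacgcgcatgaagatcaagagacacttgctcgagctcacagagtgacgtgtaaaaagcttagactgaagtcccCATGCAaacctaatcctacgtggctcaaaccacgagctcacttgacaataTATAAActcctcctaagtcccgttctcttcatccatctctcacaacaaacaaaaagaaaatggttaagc
GSTF5: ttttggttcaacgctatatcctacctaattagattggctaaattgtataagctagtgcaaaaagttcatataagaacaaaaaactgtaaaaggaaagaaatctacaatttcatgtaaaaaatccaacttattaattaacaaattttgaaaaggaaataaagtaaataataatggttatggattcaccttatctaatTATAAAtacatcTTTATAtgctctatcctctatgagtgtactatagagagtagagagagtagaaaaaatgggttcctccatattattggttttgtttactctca

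SESA3 held 7 matches to CATGCA, several of them overlapping in a run of repeats, with 1 match to CACGTG and 1 to TATAAA. OLEO1 held 3 matches to CATGCA and 2 to CACGTG, CRU3 held 1 to CATGCA and 1 to TATAAA, and GSTF5 held 2 to TATAAA only. Over all 46 promoters, CATGCA occurred in 7 (15.2%), where 3300 of the 32546 promoters of the table and 12.7% of those of wild-type-silent genes held it. CACGTG occurred in 8 of the 46 (17.4%), against 7.11% of all promoters and 4.21% of those of wild-type-silent genes; AIG2L, CSLA01, OLEO1 and SESA3 were among the 8. TTGAC, the core of the W-box bound by WRKY proteins, was in 69.6% of the 46, in 49.9% of all and in 47.9% of the silent genes, and TATAAA in 58.7%, 50.6% and 48.9%. TGGGCC was in 7 of the 46 (15.2%), in 14.3% of all and in 7.63% of the silent genes. GCCGCC was in 6.52% of the 46, 2.63% of all and 2.62% of the silent genes, ACCGAC in 4.35%, 5.56% and 4.36%, AAACCCTA in 2.17%, 6.19% and 7.38%, and GAGAGAGA in 8.7%, 7.87% and 6.91%. These shares describe letters in a fixed window and were not tested.

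The 46 genes were low even in rxt3. Their rxt3 means lay between 15.2 and 59.2 with a median of 18.4, and 26 of the 46 were under 20 and 8 at 30 or more. The medians over the 46 genes were 5.54 in hda6, 5.45 in arid14, 4.62 in esant12, 6.37 in hda19, 6.73 in sant1234 and 4.86 in mbd124, and 3.49 in wild type. Per kilobase of exon, the rxt3 level had a median of 20.6 over the 46 genes, while the 19315 genes at 15 or more in rxt3 had a median of 189. Both rxt3 libraries lay above both wild-type libraries for 43 of the 46 genes, where the rule had chosen that contrast and 6.13% of all wild-type-silent genes showed the same. Both rxt3 libraries lay above all 14 other libraries for 31 genes (67.4%, with 1.01% of wild-type-silent genes). The rule had chosen part of this contrast too, since the 14 include the wild-type and hda6 libraries. From bulk tissue, fewer cells of a type and less RNA per cell cannot be told apart.

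**Figure D1:**
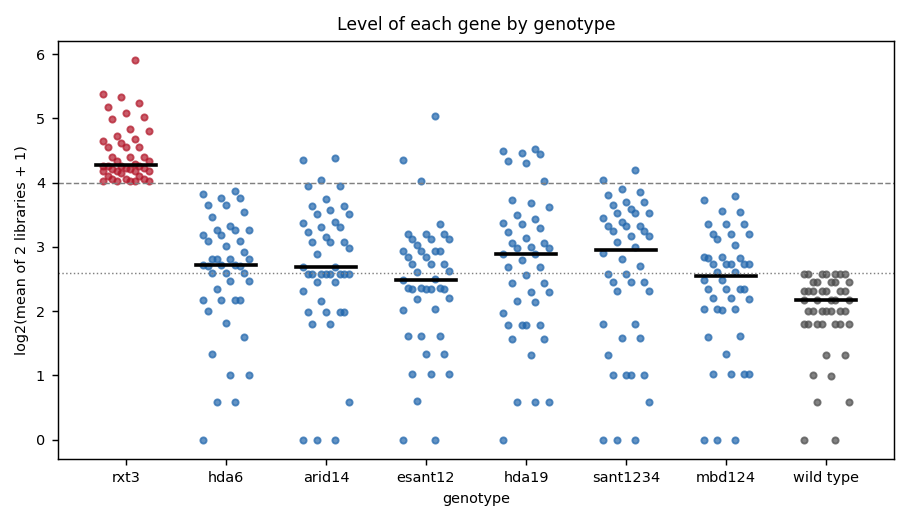
Level of each of the 46 genes in 8 genotypes, as log2(mean of 2 libraries + 1) on the y axis, 1 point per gene, with the median as a black line. Dashed and dotted lines stand at means of 15 and 5; the rxt3 points sit above 15 and the hda6 and wild-type points under their limits by choice, while the other 5 mutants have medians from 4.62 to 6.73.

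Close to the limits, genes inside and outside the set differed little. AIG2L and OFP8 were inside at wild-type means of 4.99 and 4.98, and BCAT7 and AT1G06170 outside at 5.48 each. GAD3 and AT2G20720 were inside at rxt3 means of 15.2, and GA2OX8 and AT3G28570 outside at 14.7. AT5G24640 and PHT1;8 were inside at hda6 means of 13.6 and 13.1, and the sugar transporter gene SWEET10 and UMAMIT25 outside at 15.1 and 16.6. Held to the same limits in every single library, 18 of the 46 genes stayed. In hda6, 16 of the 46 had a mean of at most 5, 30 lay between the limits and 8 of these reached 10. A mean above 5 did not by itself set hda6 apart from wild type. AT1G53610, for 1, had 5 and 6 reads in hda6 and 5 in each wild-type library. Differences between hda6 and wild type were not tested.

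GSTF5 (AT1G02940, chromosome 1, 662963 to 664290, 5 exons), a glutathione S-transferase of the phi class that couples glutathione to reactive compounds, had 79 and 42 reads in rxt3, 7 and 5 in hda6, 6 and 9 in arid14, 1 and 3 in esant12, 8 and 13 in hda19, 11 and 9 in sant1234, 12 and 4 in mbd124, and 3 and 6 in wild type. The lower rxt3 library was above all 14 others, and the mean normalised value was 59.2 ± 25.2 (SD, n = 2) in rxt3 against 4.49 ± 2.13 (SD, n = 2) in wild type. AT1G53610, an uncharacterised protein of a short gene, had 34 and 49 reads in rxt3, 5 and 6 in hda6, 25 and 14 in arid14, 0 and 3 in esant12, 1 and 4 in hda19, 3 and 8 in sant1234, 5 and 9 in mbd124, and 5 in each wild-type library. Here arid14 was the next genotype after rxt3, with both of its libraries above the remaining 12. Per kilobase of exon AT1G53610 was the highest of the set in rxt3, at 143.

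AT5G24640, also uncharacterised, had 26 and 54 reads in rxt3, 9 and 18 in hda6, 4 and 17 in arid14, 5 and 9 in esant12, 1 and 4 in hda19, 2 in each sant1234 library, 4 and 6 in mbd124, and 7 and 1 in wild type. It carried the highest hda6 mean of the set, and 1 hda6 library and 1 arid14 library approached the lower rxt3 library. AT4G22110, a zinc-binding dehydrogenase, had 49 and 26 reads in rxt3, 5 and 10 in hda6, 12 and 17 in arid14, 15 and 23 in esant12, 17 and 14 in hda19, 11 and 17 in sant1234, 9 in each mbd124 library, and 3 in each wild-type library. Every mutant library of this gene was above wild type, and esant12 and hda19 passed a mean of 15.

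AT1G49920, annotated as a transposase of the Mutator family of DNA transposons, had 38 and 34 reads in rxt3, 14 and 11 in hda6, 2 and 3 in arid14, 7 and 1 in esant12, 21 and 23 in hda19, 12 and 15 in sant1234, 4 and 5 in mbd124, and 1 and 8 in wild type. The rxt3 libraries were the highest, and both hda19 libraries lay above the other 12. AT5G59390 has the XH and XS domains found in a family that includes proteins of RNA-directed DNA methylation. It had 39 and 28 reads in rxt3, 8 and 10 in hda6, 6 and 17 in arid14, 2 and 6 in esant12, 29 and 16 in hda19, 11 and 20 in sant1234, 1 and 3 in mbd124, and 3 and 2 in wild type. For this gene the higher hda19 library fell within the rxt3 range, and mbd124 was at wild-type levels.

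AT1G70680, a caleosin-related gene, belongs to a family of calcium-binding proteins of lipid droplets. It had 41 and 23 reads in rxt3, 13 and 8 in hda6, 5 and 2 in arid14, 3 and 10 in esant12, 3 and 4 in hda19, 10 and 6 in sant1234, 0 and 2 in mbd124, and 3 and 2 in wild type. The rxt3 libraries were above all others by a clear margin, with the higher hda6 library next. NCED2, 1 of the dioxygenases that cut carotenoids in abscisic acid synthesis, had 20 and 32 reads in rxt3, 4 and 3 in hda6, 2 and 3 in arid14, 2 and 0 in esant12, 2 and 1 in hda19, 3 and 2 in sant1234, 1 in each mbd124 library, and 0 and 2 in wild type. No library outside rxt3 held more than 4 reads of NCED2. Its rxt3 to wild-type ratio was 25.5, and with 2 wild-type reads in all the 95% interval of that ratio, for counting error only, ran from 6.87 to 221.

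AT1G10586, a basic helix-loop-helix DNA-binding protein, had 17 and 19 reads in rxt3, 1 and 0 in hda6, 2 and 4 in arid14, 0 and 3 in esant12, 1 and 4 in hda19, 2 and 15 in sant1234, 0 and 4 in mbd124, and 1 and 0 in wild type. Outside rxt3 its highest library was sant1234 replicate 2, whose partner library had 2 reads. AT5G55150, an F-box protein of the kind that selects proteins for ubiquitination, had 24 reads in each rxt3 library, 1 and 2 in hda6, 2 and 29 in arid14, 0 and 7 in esant12, 1 and 0 in hda19, 1 in each sant1234 library, 0 and 7 in mbd124, and 2 and 0 in wild type. The arid14 libraries of AT5G55150 were thus far apart, and arid14 passed a mean of 15 through replicate 2 alone.

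Seed protein genes formed a separate case within the set. The list of seed maturation genes contributed SESA3 (a 2S albumin), OLEO1 (an oleosin that coats oil bodies) and CRU3 (a 12S globulin), and all 3 met the rule through rxt3 replicate 1. SESA3 had 55 and 0 reads in rxt3, 1 and 0 in hda6, 1 and 0 in hda19, and none in the other 10 libraries. OLEO1 had 38 and 1 reads in rxt3, 2 and 0 in hda6, 0 and 1 in esant12, 1 and 0 in hda19, 1 and 0 in wild type, and none in arid14, sant1234 or mbd124. CRU3 had 32 and 0 reads in rxt3, 8 and 0 in hda6, 0 and 30 in esant12, 14 and 0 in hda19, 1 in each sant1234 library, and none in arid14, mbd124 or wild type. In none of the 3 did the second rxt3 library exceed the wild-type libraries by more than 1 read, and for CRU3 esant12 replicate 2 was about as high as rxt3 replicate 1.

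The same library was high for other storage protein genes. CRA1, a 12S globulin outside the set because its hda6 mean was 17.7, had normalised values of 106 and 6.72 in rxt3, 30.4 and 4.98 in hda6, 1.3 and 55.7 in esant12, 51.9 and 0.738 in hda19, and 5.97 and 3.0 in wild type. CRU2 had 22.5 and 0 in rxt3, and SESA2 21.6 and 0, with no wild-type read of either. The 16 other genes of the list together summed to 589 and 111 in rxt3, 529 and 172 in hda6, 1647 and 129 in arid14, 91.4 and 148 in esant12, 445 and 1353 in hda19, 114 and 124 in sant1234, 429 and 260 in mbd124, and 635 and 987 in wild type. LEA7, a late embryogenesis abundant protein gene, made up most of that sum in rxt3, at 369 and 71.6, and in wild type, at 590 and 948. In rxt3 replicate 1 storage protein genes were above wild type while LEA7 was below it. Without rxt3 replicate 1 the rule gave 46 genes again, of which 32 were the same; without rxt3 replicate 2 it gave 52, of which 41 were the same.

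**Figure D2:**
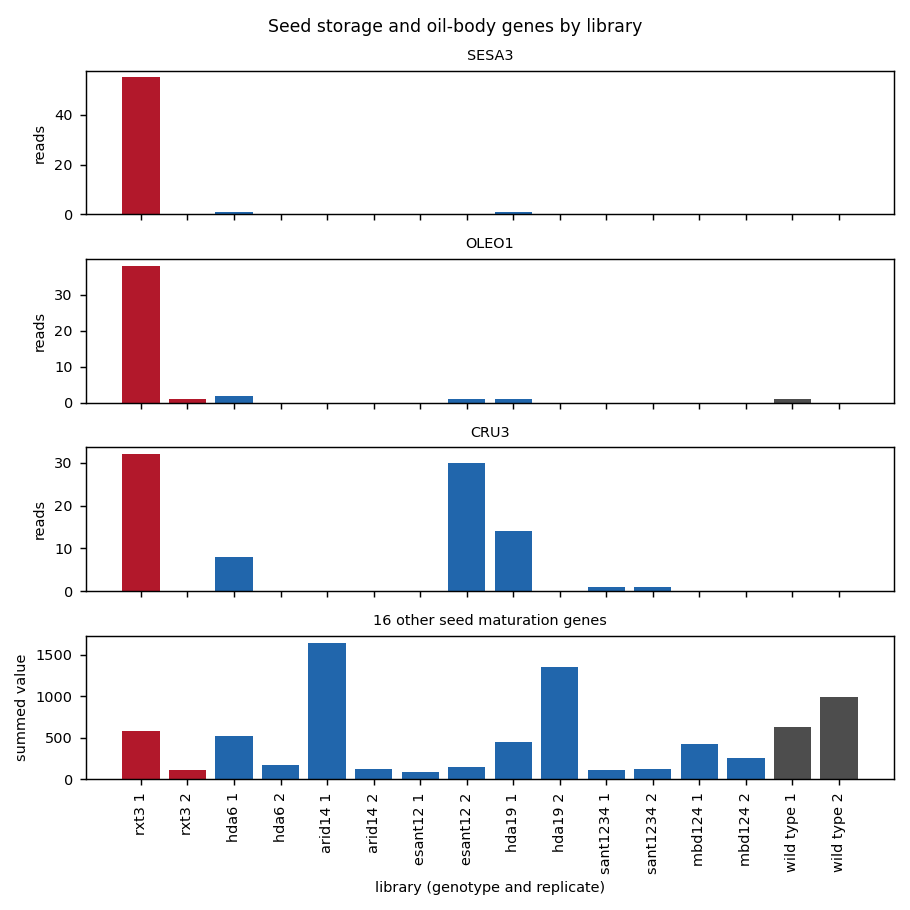
Reads of SESA3, OLEO1 and CRU3 in each of the 16 libraries (upper 3 panels) and the summed normalised value of 16 other seed maturation genes (lowest panel). Bars stand for single libraries; rxt3 replicate 1 had 55, 38 and 32 reads of the 3 genes while rxt3 replicate 2 had at most 1.

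In the other 43 genes, with more than 1 read in both rxt3 libraries, the higher rxt3 library exceeded the lower by a median of 1.37 times, and by 2.28 times at most. The summed normalised value of all 46 genes was 1111 and 942 in rxt3, 281 and 282 in hda6, 299 and 346 in arid14, 216 and 306 in esant12, 347 and 354 in hda19, 295 and 323 in sant1234, 226 and 244 in mbd124, and 149 and 145 in wild type. Every mutant library was above both wild-type libraries in this sum, and the wild type was where the rule had taken low values. Without wild-type replicate 1 the rule gave 75 genes, of which 39 were among the 46.

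**Figure D3:**
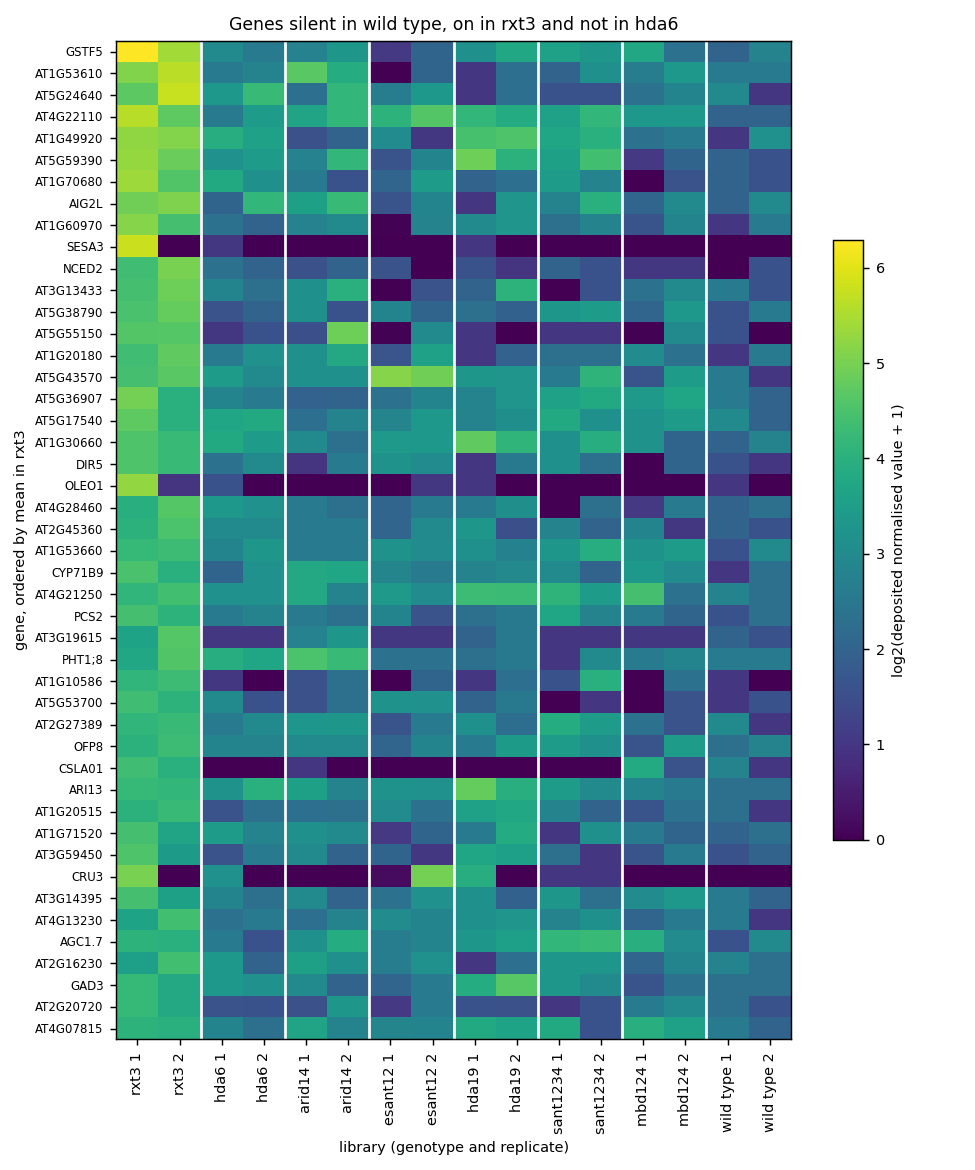
Deposited normalised value of each of the 46 genes in the 16 libraries, as log2(value + 1), with genes ordered from the highest to the lowest rxt3 mean. The rxt3 columns are the brightest for most genes; SESA3, OLEO1 and CRU3 are bright in rxt3 replicate 1 and dark in replicate 2.

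Outside rxt3 and hda6, 13 of the 46 genes (28.3%) reached a mean of 15 in at least 1 of the 5 mutants that the rule did not use, and 33 in none. By mutant, 3 genes reached 15 in arid14, 3 in esant12, 7 in hda19, 2 in sant1234 and 0 in mbd124. Of all wild-type-silent genes, 0.151% did so in arid14, 0.101% in esant12, 0.26% in hda19, 0.285% in sant1234 and 0.067% in mbd124. AT4G22110 (esant12 and hda19) and AT5G59390 (hda19 and sant1234) did so in more than 1 mutant. Of the 16 genes that were at 15 or more in both rxt3 and hda6, 14 (87.5%) reached 15 in at least 1 of the 5 mutants; the difference from 28.3% was not tested, since both lists were chosen on these values. Of the 46 genes, both libraries of a mutant lay above both wild-type libraries for 20 in arid14, 15 in esant12, 22 in hda19, 23 in sant1234 and 12 in mbd124, where 5.24%, 13.1%, 5.02%, 7.14% and 12.9% of wild-type-silent genes did. Low wild-type values were part of the rule, so these counts are a description. They compare normalised values, in which a library without a read could stand just above 0. CRU3 had 0.128 in esant12 replicate 1, and TDF1 0.00782 in mbd124 replicate 1, against 0 in wild type. The esant12 and mbd124 shares of wild-type-silent genes therefore include genes with no read in 1 library.

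The test open to the set was whether its genes differed among arid14, esant12, hda19, sant1234 and mbd124, none of which chose them. Of the 46 genes, 44 passed the filter on low values, and OLEO1 and SESA3 did not; 18 of the 44 passed only with the rxt3 libraries, which had chosen them. In the limma F test on log2(value + 1), 16 of the 44 (36.4%) had an adjusted p under 0.05, where 49.9% of all 20846 genes did. With the filter applied to the 10 libraries of these 5 mutants alone, 23 of the 46 genes passed and 11 were called (47.8%), where 51.2% of 20430 genes were, and all 11 were among the 16. Of the other 5, AT3G19615, AT5G53700 and CSLA01 had passed the first filter only with the rxt3 libraries. At an unadjusted p under 0.05 the count was 19, and the share of all genes at that threshold was not counted. The range between the highest and the lowest of the 5 mutant means was 1.71 on the log2 scale in the median of the 44 genes and 0.41 over all genes. All genes were not matched to the 44 in read level, and counting error widens such a range at few reads. By genotype, 7 of the 16 had their highest of the 5 means in hda19, 4 in arid14, 2 in esant12, 2 in sant1234 and 1 in mbd124. How all genes called in the F test split by genotype was not counted, so this order is not shown to be a trait of the set.

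Of the genes highest in hda19, AT5G59390 ranged over 2.94 on the log2 scale (adjusted p = 0.00204) and AT1G49920 over 2.72 (adjusted p = 0.00839), with the reads given above. GAD3 encodes a glutamate decarboxylase, which makes GABA. It had 18 and 13 reads in rxt3, 9 and 8 in hda6, 7 and 3 in arid14, 3 and 5 in esant12, 14 and 25 in hda19, 9 and 7 in sant1234, 2 and 4 in mbd124, and 4 in each wild-type library (range 2.30, adjusted p = 0.00287). ARI13, a RING protein of the ARIADNE family of ubiquitin ligases, had 18 and 17 reads in rxt3, 8 and 15 in hda6, 11 and 6 in arid14, 8 in each esant12 library, 27 and 15 in hda19, 10 and 7 in sant1234, 6 and 5 in mbd124, and 4 in each wild-type library. The ARI13 range was 1.65 (adjusted p = 0.0226). For GAD3 and ARI13 the hda19 mean was above the rxt3 mean, and the libraries of the 2 genotypes overlapped. AT1G30660, a nucleic acid binding protein, had 23 and 18 reads in rxt3, 13 and 10 in hda6, 7 and 4 in arid14, 9 in each esant12 library, 26 and 17 in hda19, 8 and 14 in sant1234, 8 and 3 in mbd124, and 3 and 6 in wild type. Its range was 1.82 (adjusted p = 0.0167), and rxt3 and hda19 overlapped.

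The genes highest in arid14 included AT1G53610 (range 3.27, adjusted p = 0.00462) and PHT1;8. PHT1;8, a phosphate transporter of the family that takes up phosphate in roots, had 13 and 23 reads in rxt3, 14 and 12 in hda6, 22 and 18 in arid14, 4 in each esant12 library, 4 and 5 in hda19, 1 and 7 in sant1234, 5 and 6 in mbd124, and 5 in each wild-type library. Here arid14, rxt3 and hda6 stood apart from the other genotypes, and the range over the 5 mutants was 2.38 (adjusted p = 0.0087). AT3G19615, annotated as a beta-1,4-xylosidase, had 12 and 24 reads in rxt3, 1 in each hda6 library, 6 and 9 in arid14, 1 in each esant12 library, 3 and 5 in hda19, 1 in each sant1234 and mbd124 library, and 3 and 2 in wild type (range 2.05, adjusted p = 0.00248). AT3G13433, uncharacterised, was read 21 and 29 times in rxt3, 6 and 4 in hda6, 8 and 15 in arid14, 0 and 2 in esant12, 3 and 16 in hda19, 0 and 2 in sant1234, 4 and 7 in mbd124, and 5 and 2 in wild type (range 2.78, adjusted p = 0.0108). In esant12 and sant1234, AT3G13433 was at or under its wild-type level.

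The genes highest in esant12 were AT5G43570 and AT5G53700. AT5G43570 is a serine protease inhibitor of the potato inhibitor I type. Its reads were 21 and 25 in rxt3, 10 and 7 in hda6, 8 in each arid14 library, 33 and 29 in esant12, 9 in each hda19 library, 5 and 16 in sant1234, 2 and 10 in mbd124, and 5 and 1 in wild type. Both esant12 libraries were above both rxt3 libraries (range over the 5 mutants 2.48, adjusted p = 0.0306). AT5G53700, an RNA-binding protein with RRM motifs, had 20 and 16 reads in rxt3, 7 and 2 in hda6, 2 and 4 in arid14, 8 in each esant12 library, 3 and 5 in hda19, 0 and 1 in sant1234, 0 and 2 in mbd124, and 1 and 2 in wild type (range 2.70, adjusted p = 0.00918). CSLA01, a cellulose synthase-like enzyme of the mannan-making family, had the opposite profile among the 5. It had 20 and 15 reads in rxt3, 1 and 0 in arid14, 13 and 2 in mbd124, 6 and 1 in wild type, and none in hda6, esant12, hda19 or sant1234 (range 2.73, adjusted p = 0.0165). CSLA01 was thus read in mbd124 and wild type as well as in rxt3, while 4 mutants had no read of it.

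GSTF5 (range 1.94, adjusted p = 0.0252) and AT3G59450, a calcium-binding EF-hand protein (range 2.09, adjusted p = 0.0459), were also highest in hda19 among the 5. AT5G36907, uncharacterised (range 1.70, adjusted p = 0.0099), and AT1G70680 (range 2.32, adjusted p = 0.0328) were highest in sant1234. In 18 alternative analyses, AT1G49920, AT1G53610 and AT5G59390 passed in every one, and DESeq2 called only these 3 and AT5G43570 among the 44. Single libraries decided 8 of the 16 calls. Without hda19 replicate 1 the adjusted p was 0.234 for ARI13, 0.101 for AT1G30660 and 0.178 for AT3G59450, and without hda19 replicate 2 it was 0.143 for AT3G59450. Without esant12 replicate 1 it was 0.261 for GSTF5 and 0.166 for AT5G43570, and without esant12 replicate 2 it was 0.119 for AT5G43570 and 0.0885 for AT3G59450. Without mbd124 replicate 1 it was 0.281 for CSLA01 and 0.192 for AT1G70680, and without mbd124 replicate 2 it was 0.0528 for ARI13. The remaining cases were PHT1;8 without arid14 replicate 1 (0.0774), AT1G70680 without sant1234 replicate 1 (0.0882) and AT3G59450 without sant1234 replicate 2 (0.062).

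**Figure D4:**
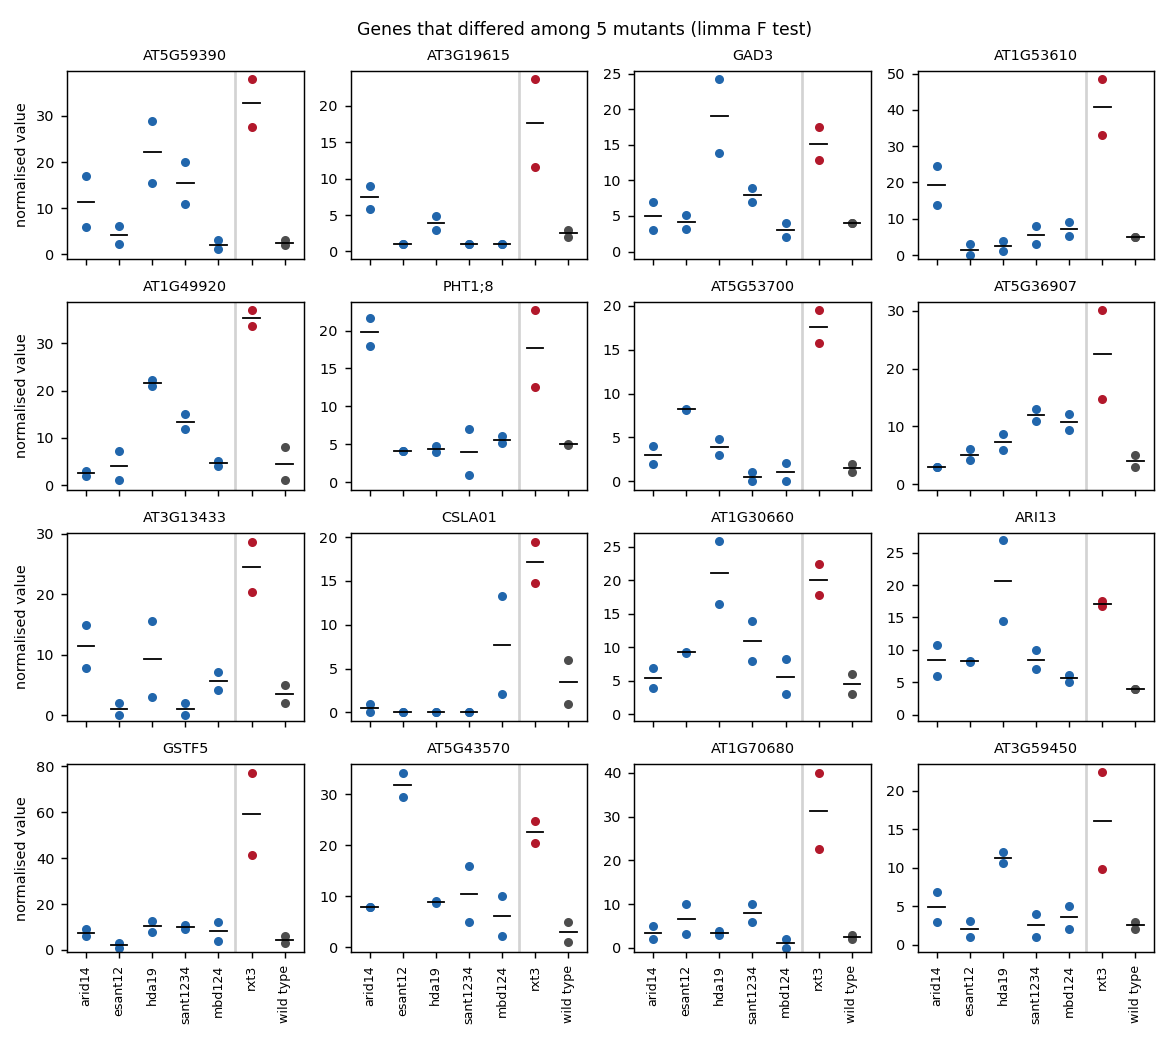
Deposited normalised value (y axis, own scale per panel) of the 16 genes that differed among 5 mutants, with points for the 2 libraries and a line for their mean. The 5 mutants of the test stand left of the grey line, and rxt3 and wild type, which chose the genes, stand right of it. A mutant mean is above the rxt3 mean for GAD3, ARI13 and AT1G30660 (hda19), PHT1;8 (arid14) and AT5G43570 (esant12).

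Each of 4 mutants was then compared with mbd124, which served as the common partner. It was chosen because it differed from wild type at the fewest genes in earlier results of these data. Few genes of the set were called. Of those called in these pairs, AT3G19615, AT5G53700 and CSLA01 had passed the filter only with the rxt3 libraries. In hda19, 6 of the 44 genes were higher than in mbd124 and 1 lower, where 8.91% of all genes were higher and 11.1% lower. The 6 were AT5G59390 (log2 difference 2.94 ± 0.54, SE; adjusted p = 0.00174), GAD3 (2.30 ± 0.42; adjusted p = 0.00165), ARI13 (1.65 ± 0.38; adjusted p = 0.00773), AT1G30660 (1.82 ± 0.44; adjusted p = 0.0103), AT1G20515 (1.69 ± 0.48; adjusted p = 0.0236) and AT1G49920 (2.01 ± 0.63; adjusted p = 0.0371), and the lower gene was CSLA01. The hda19 count was 2 without hda19 replicate 1, 4 without hda19 replicate 2, 5 without mbd124 replicate 1 and 6 without mbd124 replicate 2; AT5G59390 and GAD3 passed each time. The median log2 difference over the 44 genes was 0.45, against -0.01 over all genes. The genes were chosen low in wild type, and mbd124 was chosen as near to wild type. A positive median against mbd124 may in part follow from these choices, here and in the pairs below.

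In arid14, 3 of the 44 genes were higher than in mbd124 and 2 lower (5.96% and 9.88% of all genes). The median difference for arid14 was 0.56, against 0.01 over all genes. AT3G19615 (2.03 ± 0.42; adjusted p = 0.00464), AT5G59390 (1.95 ± 0.54; adjusted p = 0.0238) and PHT1;8 (1.65 ± 0.50; adjusted p = 0.0379) were higher, and AT5G36907 (-1.55 ± 0.38; adjusted p = 0.0128) and CSLA01 (-2.23 ± 0.70; adjusted p = 0.0444) lower. The count of 5 became 2 without arid14 replicate 1, 0 without arid14 replicate 2, 2 without mbd124 replicate 1 and 3 without mbd124 replicate 2. At an unadjusted p under 0.05 it was 7, again without a share of all genes at that threshold.

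Against mbd124, esant12 was higher for AT5G43570 (2.48 ± 0.61; adjusted p = 0.0138), AT5G53700 (2.40 ± 0.60; adjusted p = 0.0151) and AT1G70680 (1.96 ± 0.59; adjusted p = 0.0361) and lower for CSLA01 (-2.73 ± 0.70; adjusted p = 0.0175) and AT1G53610 (-1.97 ± 0.62; adjusted p = 0.0439), so 3 were higher and 2 lower where 6.69% and 9.52% of all genes were. The median difference was -0.14, against -0.01 over all genes. The count of 5 became 1 without either esant12 library, 0 without mbd124 replicate 1 and 6 without mbd124 replicate 2. In sant1234, AT5G59390 was higher (2.46 ± 0.54; adjusted p = 0.0346) and no gene was lower, where 0.892% of all genes were higher and 1.23% lower. The median difference for sant1234 was 0.41, against -0.01 over all genes. At an unadjusted p under 0.05 the sant1234 count was 9. The shares of 0.892% and 1.23% are at the adjusted threshold and cannot be set against that count. The AT5G59390 call was lost without sant1234 replicate 1 (adjusted p = 0.101) or 2 (0.248) and without mbd124 replicate 1 (0.22) or 2 (0.0547). The 4 comparisons share the mbd124 libraries, and CSLA01 was lower in 3 of them where mbd124 replicate 1 held 13 reads and replicate 2 held 2.

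The other 6 pairs of these mutants were tested in the same way. Where called in these pairs, AT2G16230, AT3G19615 and AT5G53700 had passed the filter only with the rxt3 libraries. In esant12 against hda19, 1 gene was higher and 8 were lower, where 17.4% and 17.3% of all genes were. AT5G43570 was the higher one (1.74 ± 0.61; adjusted p = 0.0388), and GAD3 (-1.96 ± 0.42; adjusted p = 0.00243), AT5G59390 (-2.24 ± 0.54; adjusted p = 0.0053), AT1G49920 (-2.47 ± 0.63; adjusted p = 0.00794) and GSTF5 (-1.94 ± 0.51; adjusted p = 0.00882) led the lower ones. The remaining 4 lower genes were AT3G59450, AT3G13433, ARI13 and AT3G19615. The count of 9 became 4 without esant12 replicate 1, 5 without esant12 replicate 2 and 5 without hda19 replicate 2, and GAD3 passed in all alternatives.

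In arid14 against hda19, 4 genes were higher (13% of all genes) and 4 lower (13.6%). AT1G53610 (2.65 ± 0.62; adjusted p = 0.00596), PHT1;8, AT2G16230 and AT1G20180 were higher, and GAD3 (-1.79 ± 0.42; adjusted p = 0.00581), AT1G49920, AT1G30660 and ARI13 lower. The count of 8 became 3 without arid14 replicate 2 and 2 without hda19 replicate 1. In arid14 against esant12, 5 were higher (15.5% of all genes) and 1 lower (15%); the largest of the 5 was AT1G53610 (3.27 ± 0.62; adjusted p = 0.00125), and the lower gene was AT5G43570. That count of 6 became 3 without arid14 replicate 2 and 3 without esant12 replicate 1.

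Against sant1234, arid14 was higher for 3 genes (8.02% of all genes), PHT1;8, AT3G19615 and AT3G13433, and lower for AT1G49920 and AT5G36907 (8.97%). Without arid14 replicate 2 the count of 5 became 2, and without sant1234 replicate 1 it became 3. For esant12 against sant1234, AT5G53700 was higher (10.5%) and GSTF5, AT5G59390 and AGC1.7 were lower (10.8%). This count of 4 became 0 without sant1234 replicate 1 and 2 without esant12 replicate 1. For hda19 against sant1234, ARI13, AT3G13433, AT3G19615 and AT3G59450 were higher (9.93%) and AT2G16230 was lower (10.2%). This count of 5 became 2 without sant1234 replicate 1, 1 without hda19 replicate 1 and 2 without hda19 replicate 2.

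By the product that the reference gives, 10 of the 46 genes are of unknown function, 7 fall in a class of DNA-binding, RNA-binding and related regulatory proteins, 5 are seed storage, oleosin, caleosin or late embryogenesis abundant genes, and 3 are transporters. Besides PHT1;8, the transporters are AT1G53660 of the nodulin MtN21 family, with means of 18.1 ± 0.895 in rxt3 and 4.49 ± 3.54 in wild type (SD, n = 2 each), and AT4G21250 of the TauE/SafE family, with 18.1 ± 2.29 in rxt3 and 4.98 ± 1.39 in wild type. AT4G21250 had 19 reads in each hda19 library, within the rxt3 range of 17 and 20. Of the seed and lipid-droplet genes, the late embryogenesis abundant gene AT4G13230 had 12 and 20 reads in rxt3, 4 and 5 in hda6, 4 and 6 in arid14, 7 and 6 in esant12, 8 and 9 in hda19, 6 and 8 in sant1234, 3 and 5 in mbd124, and 5 and 1 in wild type. Its lower rxt3 library held 12 reads, against at most 1 for SESA3, OLEO1 and CRU3, and both rxt3 values lay above all others.

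Other enzymes and defence-class genes came from several families. DIR5, a dirigent protein of the kind that guides lignan coupling, had 23 and 18 reads in rxt3, 4 and 7 in hda6, 1 and 5 in arid14, 8 and 7 in esant12, 1 and 5 in hda19, 8 and 4 in sant1234, 0 and 3 in mbd124, and 2 and 1 in wild type. PCS2, a phytochelatin synthase that makes metal-binding peptides, had 21 and 16 in rxt3, against 2 and 4 in wild type, with the other mutants between 2 and 12. CYP71B9, a cytochrome P450, had 22 and 15 in rxt3, against 1 and 4 in wild type, and arid14 was next at 13 and 12. In each of these 3 genes the lower rxt3 library was above all 14 others.

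Among regulators, OFP8 of the ovate family of transcriptional repressors had means of 17.1 ± 2.28 in rxt3 and 4.98 ± 1.43 in wild type. AT1G71520, of the AP2/ERF-type DNA-binding class, had 21 and 12 reads in rxt3, 10 and 6 in hda6, 5 and 14 in hda19, and 3 and 4 in wild type, so that its lower rxt3 library overlapped hda19. AGC1.7, a kinase known from pollen tube growth, had 16 and 15 reads in rxt3, 5 and 2 in hda6, 8 and 14 in arid14, 5 and 6 in esant12, 9 and 11 in hda19, 17 and 18 in sant1234, 14 and 7 in mbd124, and 2 and 7 in wild type. Both sant1234 libraries of AGC1.7 were above both rxt3 libraries. The non-coding RNA AT1G20515 had 16 and 18 reads in rxt3, 2 and 4 in hda6, 11 and 13 in hda19, and 4 and 1 in wild type, and AT4G07815 had 16 and 15, 6 and 4, 13 and 12, and 5 and 3 in the same 4 genotypes.

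The genes were scattered over the genome, with 15, 6, 4, 10 and 11 on chromosomes 1 to 5, and none lay next to another. The closest pair, AT4G28460 and CRU3, had 6 genes and 20895 bases between them. Their summed exons had a median length of 964 bases, against 524 over wild-type-silent genes and 1339 over all genes. Genes of 1 exon made up 26.1% of the set, 55.4% of wild-type-silent genes and 30.9% of all genes, and protein-coding genes 95.7%, 61.2% and 84.3%. For 5 of the 46 genes some stretch of 50 bases, the read length, also occurred elsewhere in the genome, in none for over 10% of its stretches. Overlap with a gene on the opposite strand was annotated for 8 genes (AT5G38790, AT5G17540, OLEO1, AT2G45360, AT3G19615, AT2G27389, AT1G20515 and AT2G20720). Whether reads were counted by strand is not given in the sources used here, so for these 8 reads of either strand cannot be told apart. The partner of AT5G17540 had 809 and 805 in rxt3 and 750 and 811 in wild type, that of OLEO1 111 and 99.7 in rxt3 and 63.6 and 51.9 in wild type, and a partner of AT2G45360 657 and 689 in rxt3 and 754 and 822 in wild type.

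Markers of other tissues were summed beside the set. The 12 floral organ identity genes summed to 185 and 188 in rxt3 and 97.4 and 97.9 in wild type. Of these, SEP3 had 83.7 and 78.0 in rxt3 and 23.8 and 36.0 in wild type. AGL8 went the other way, at 10.7 and 16.8 in rxt3 and 25.8 or more in both wild-type libraries. CAL was not read in either genotype. The 18 root genes summed to 4763 and 5097 in rxt3 and 3773 and 4181 in wild type, and the 12 meiosis genes to 528 and 434 in rxt3 and 384 and 350 in wild type. The 14 pollen genes summed to 142 and 150 in rxt3 and 121 and 137 in wild type. ANX1 and GEX1 made up most of that sum in both genotypes. ANX1 had 95.3 and 90.8 in rxt3 and 78.5 and 91.9 in wild type, and GEX1 26.2 and 33.6 in rxt3 and 28.8 and 23.0 in wild type. In these 4 sums both rxt3 libraries were above both wild-type libraries, but not in every gene of a list. For the root list this order rested on PRP3 alone, with the values below. For the meiosis list it rested on DMC1, at 199 and 178 in rxt3 and 115 and 110 in wild type. Some other mutants had sums above wild type too. In hda19 the floral sum was 170 and 184 and the root sum 4267 and 4849, and in hda6 the pollen sum was 207 and 199. Not all did, as the root sum was 3588 and 3629 in hda6. Of the root genes, PRP3 had 1624 and 1798 in rxt3 and 834 and 994 in wild type, while SCR had 802 and 764 in rxt3 and 1200 and 1217 in wild type, and SHR 182 and 207 in rxt3 and 263 and 278 in wild type. The 11 tapetum and anther genes summed to 122 and 108 in rxt3 and 160 and 147 in wild type, with MS1 and DYT1 without a read in any library, and the 8 embryo genes had 76.0 and 58.2 in rxt3 and 79.5 and 95.9 in wild type, with WOX8 not read. Of the embryo genes, WOX2 had 8.76 and 6.9 in rxt3 and 45.7 and 55.0 in wild type, while PLT2 had 25.3 and 15.8 in rxt3 and 6.96 and 4.0 in wild type. None of the 46 genes is on these lists, and the part of any tissue in their levels was not tested.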

How the data were processed

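Libraries of 50-base single-end reads were made from total RNA of 14-day-old seedlings, per the labels' protocols. The authors aligned reads to TAIR10 with HISAT2 2.1.0, assigned them with featureCounts and used edgeR, per the submitters' processing notes; strand setting and annotation release are not given in the sources used here. The deposited table holds normalised signal (edgeR pseudo-counts), 1 column per library, and all 16 columns matched a library. Every value (100% within a relative tolerance of 1e-06) came from a whole read count, so whole reads were recovered; these are the reads quoted, and 1 read is the resolution.

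Means of the deposited signal chose the 46 genes. The main test was limma 3.58.1 (R 4.3.3), with trend, on log2(value + 1) over all 16 libraries, for the 20846 genes with a value of 10 or more in at least 2 libraries, with Benjamini-Hochberg adjustment over all of them and a threshold of 0.05. Tests within the set used the 5 mutants that the rule did not use, in an F test and in all 10 pairs. The gene set, its rule, the tissue and complex lists and the product classes were chosen with earlier results of these data known, and the class keywords were completed after the genes had been seen. Named genes were those highest in rxt3, those called in the F test, the first of each product class, those at the limits of the rule and those on the lists. Gene names, coordinates and promoters came from RefSeq TAIR10.1; of the listed symbols, those without a match were left out.

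Counts were simulated for the same 20846 genes. On these counts the F test called 36 of 50 genes changed 1.5-fold, 48 of 50 changed 2-fold and 15 unchanged genes. The test of hda19 against mbd124 called 34, 48 and 9. These calls cover genes of all levels and were not split by read level. Recovery at the few reads of the genes in the set was therefore not measured, and these calls do not give it. Alternatives were another pseudocount, no filter, a replicate block, edgeR 4.0.16 and DESeq2 1.42.0 on the recovered reads, another scaling, a fit on the groups compared, a fold limit and each library left out. A filter on the 10 libraries of the 5 mutants, and all alternatives for the 6 pairs without mbd124, were chosen after seeing the data. Intervals of ratios cover counting error only.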

Additional observations from a re-analysis of the deposited data

How the results depend on the processing

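The count of 46 genes became 18 when every library had to meet its limit, 16 with an hda6 mean of at most 5, and 45 to 75 when 1 library was left out. In the F test limma called 16 of 44 genes and DESeq2 on the recovered reads 4, and leaving out 1 library gave 13 to 17. Of the deacetylase complex genes, 10 calls became 1 with a log2 change of at least 1, and 7 to 9 without 1 library.

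For the pairs with mbd124, arid14 had 5 calls, 3 with no filter, 2 fitted on the compared groups only, 3 with the filter on the 5 mutants, and 0 to 3 without 1 library. For esant12 against mbd124, 5 became 3 with no filter, with edgeR or with the compared groups only, 2 with the filter on the 5 mutants, and 0 to 6 without 1 library. For hda19 against mbd124, 7 became 2 in DESeq2 and 2 to 6 without 1 library. For sant1234 against mbd124, 1 became 2 with a pseudocount of 0.1 and 0 with no filter, edgeR, DESeq2 or the compared groups only, and 0 to 2 without 1 library.

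For the other pairs, arid14 against esant12 had 6 calls and 3 to 6 without 1 library; arid14 against hda19 had 8, 3 in DESeq2, and 2 to 8; arid14 against sant1234 had 5, 0 in DESeq2, and 2 to 6; and esant12 against hda19 had 9, 4 in DESeq2, and 4 to 6. For esant12 against sant1234, 4 became 2 with no filter or with the filter on the 5 mutants, 0 in DESeq2, and 0 to 5 without 1 library. For hda19 against sant1234, 5 became 3 with a pseudocount of 0.1, 2 with no filter or with the filter on the 5 mutants, 0 in DESeq2, and 1 to 4 without 1 library. DESeq2 gave no adjusted p to any of the 44 genes for arid14 or esant12 against mbd124, so it has no value there, and it gave an adjusted p to 11 of them for hda19 against mbd124 and to 25 of them for arid14 against sant1234, esant12 against hda19 and esant12 against sant1234. The cause of these shifts was not tested.

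Replicate numbers did not pair the libraries: over 28 pairs of genotypes the correlation of same-numbered deviations lay between -0.09 and 0.12, with 3 over 0.1. The fit with a replicate block called 17 genes in the F test, 10 deacetylase complex genes, 5 genes for arid14, 6 for esant12, 7 for hda19 and 2 for sant1234 against mbd124, and 5 to 10 in the other pairs. With at most 10 wild-type reads per gene over both libraries, depth limits each of their values. No result changed sign under any alternative run.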
